A study of Mus musculus with 41 samples.

Results

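What had and had not returned to baseline in aged bone 20 days after fracture was read from the 5 arrays of 25-month mice at day 20 and the 6 arrays of 25-month mice at day 0. These 11 arrays, chosen by age and day alone, belong to a series of 41 arrays from 5-month (young) and 25-month (geriatric, here old) mice at days 0, 5, 10 and 20, with 5 arrays in every other group. All mice came from the NIH aged rodent colony. Each array stood for a different mouse. Fractures were bilateral closed breaks of the tibia, made with a blunt guillotine after an intramedullary pin had been placed, under isoflurane and buprenorphine. Day 0 is taken here as unfractured bone. Strain and sex are not given in the labels. Day 0 carries the same tissue label, bone fracture callus, as day 20. Per the labels' protocols the lysed tissue could be the entire bone or its callus only, without a record for single arrays, so a different tissue sampled and a change within the tissue cannot be told apart in any comparison with day 0.

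Values were log2 intensities of Affymetrix Mouse Gene 1.0 ST arrays, on which 19938 genes were tested. A change is the log2 difference between group means, day 20 minus day 0, ± its standard error (SE) from a limma model of all 41 arrays. A gene was called where its adjusted p was under 0.05. The extracts were bulk tissue, so fewer cells of a type and less RNA per cell cannot be told apart. The number of arrays limits the precision: the median SE over genes was 0.112.

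A long-bone fracture fixed by a pin heals largely through a cartilage model. An inflammatory clot gives way to granulation tissue, cartilage forms in the callus, its cells enlarge and are replaced by woven bone as vessels enter, and osteoclasts and osteoblasts then remodel that bone. Bone also encloses the marrow, so an extract of bone carries blood-forming cells, and it lies against skeletal muscle.

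On the first principal component of the 21 old arrays, which carried 57.7% of the variance, the day 0 arrays lay between -67.4 and -47.0, the day 5 arrays between -0.8 and 18 and the day 10 arrays between 50.5 and 55.3. The day 20 arrays spread from -12.7 to 39.2, with replicate 3 at the day 0 end and replicate 2 nearest to day 10. Pairwise correlations over genes ran from 0.965 to 0.991 within day 20 and from 0.977 to 0.993 within day 0. The spread was wider at day 20 than at day 0 in 12358 genes (62%), with a median SD of 0.194 against 0.166. Array names give a further split: the names of all 5 day 20 arrays carry a number under 60, and among the day 0 arrays only that of replicate 1 does. What the numbers stand for is not given. That day 0 array also held more bone matrix RNA than the other day 0 arrays, with a mean level over the osteoblast list of 8.14 where the other day 0 arrays lay between 7.06 and 7.37.

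At day 20, 6945 genes were called against day 0 (34.8%), 3800 higher (19.1%) and 3145 lower (15.8%). Of these, 1514 differed by at least 1 log2 unit (7.59%), 911 upwards and 603 downwards, and 202 by at least 2 log2 units, 167 upwards and 35 downwards. The 5 day 20 arrays lay wholly above or wholly below the 6 day 0 arrays in 3509 genes (17.6%), 3439 of them called. Baseline was defined by an interval and not by a missed threshold: 11780 genes (59.1%) had a 95% interval of the change inside ±0.5 log2 units. Among these, 10929 were not called and 851 were called with a small change. A remaining 2064 genes (10.4%) were neither called nor inside the interval, so that the 11 arrays leave their state undetermined. The median change over all genes was 0.012. With all day 0 arrays but replicate 1 left out, that is 5 arrays against 1 in the same numbering, 2686 genes were called, 1795 higher and 891 lower. The lone array is then assumed to vary like the other groups. Of 177 called genes named by rule, for their role or as cell type markers, most lost the call under that restriction. Among the 177, 0 changed sign.

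Days 5 and 10 share the day 0 arrays with day 20, so their counts are set side by side only. Called genes numbered 6790 (34.1%) at day 5, 9152 (45.9%) at day 10 and 6945 at day 20. Genes changed by at least 2 log2 units numbered 217 at day 5, 790 at day 10 and 202 at day 20.

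**Figure D1:**
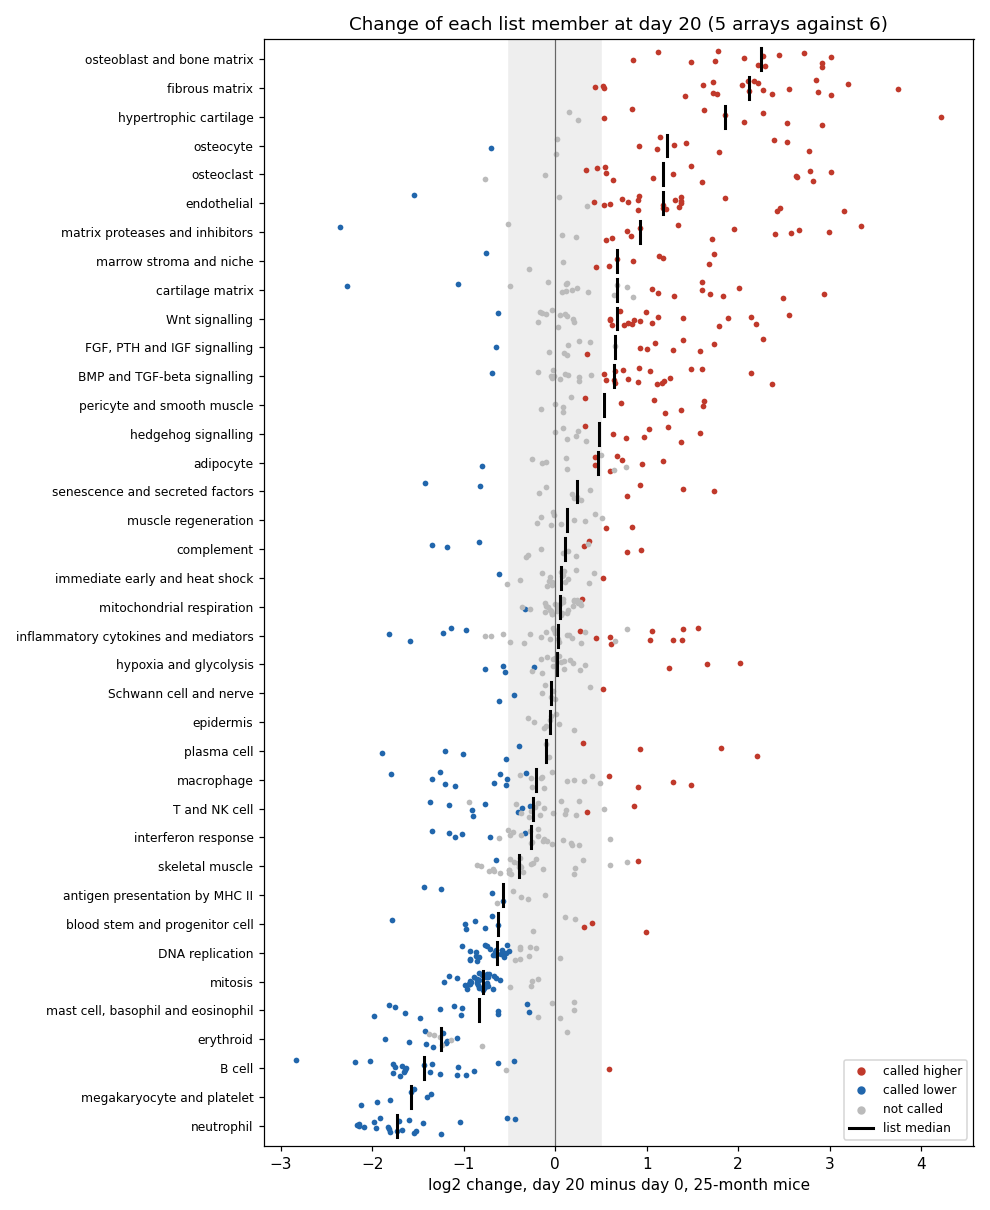
Change in log2 units from day 0 to day 20 in 25-month mice (x axis) for every measured member of the 38 gene lists (rows, ordered by their median). Red points are called higher, blue points called lower, grey points not called, black bars are list medians and the grey band marks ±0.5. Bone, fibrous matrix and vessel lists lie to the right (osteoblast median 2.25), neutrophil (-1.73), platelet and B cell lists to the left.

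The 12 highest called changes without overlap are given first. Panx3, a channel protein of hypertrophic chondrocytes and osteoblasts, measured 8.66, 10.68, 8.57, 8.67 and 9.42 in the 5 day 20 arrays, against 4.46 to 5.55 (median 4.98) at day 0. The groups did not overlap, and replicate 2 stood highest. The change was 4.22 ± 0.40 (adjusted p = 1.5e-10), 18.6-fold. Next came Cthrc1, a secreted glycoprotein of matrix-forming cells (3.75 ± 0.36), and Slc13a5, a citrate transporter of the cell membrane (3.48 ± 0.37). Cd109, a membrane-anchored TGF-beta co-receptor, rose by 3.42 ± 0.27 and Timp1, an inhibitor of matrix metalloproteinases, by 3.34 ± 0.27. Slitrk6 (3.23), Slc9b2, a sodium-proton exchanger (3.23), Cgref1 (3.20), the collagen cross-linking enzyme Lox (3.20), the apelin receptor Aplnr (3.16), the metalloproteinase Adam12 (3.10) and Pdgfrl (3.09) completed the 12 highest genes without overlap.

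Timp1 measured 9.74, 11.57, 10.73, 10.23 and 11.20 at day 20 and 6.75 to 8.39 (median 7.26) at day 0. Day 0 replicate 1 was the highest of its group, and still below every day 20 array. The same array was the highest of day 0 in all 12 of these genes.

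The 12 lowest called changes without overlap follow. Slfn4, a Schlafen family gene of myeloid cells with similar copies, measured 6.50, 6.11, 6.77, 7.16 and 6.41 at day 20, against 8.81 to 10.72 (median 9.53) at day 0. No day 20 array reached the lowest day 0 array. The change was -3.05 ± 0.29 (adjusted p = 2.2e-10). Vpreb3, a protein of the pre-B cell receptor complex, followed at -2.83 ± 0.31, with 4.81, 4.85, 5.16, 4.88 and 6.19 against 6.95 to 8.77 (median 8.14). The neutrophil granule gene Olfm4 fell by 2.71, the myeloid adaptor Pram1 by 2.47, and the transporters Abca13 and Slco4c1 by 2.40 each. Mmp8, the neutrophil collagenase, fell by 2.35, grancalcin (Gca) by 2.34 and the bacterial cell wall receptor Pglyrp1 by 2.34. Scrg1, a gene induced in cartilage formation, changed by -2.28, Chil1, a secreted chitinase-like protein, by -2.26 and Ly6a2 by -2.25.

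**Figure D2:**
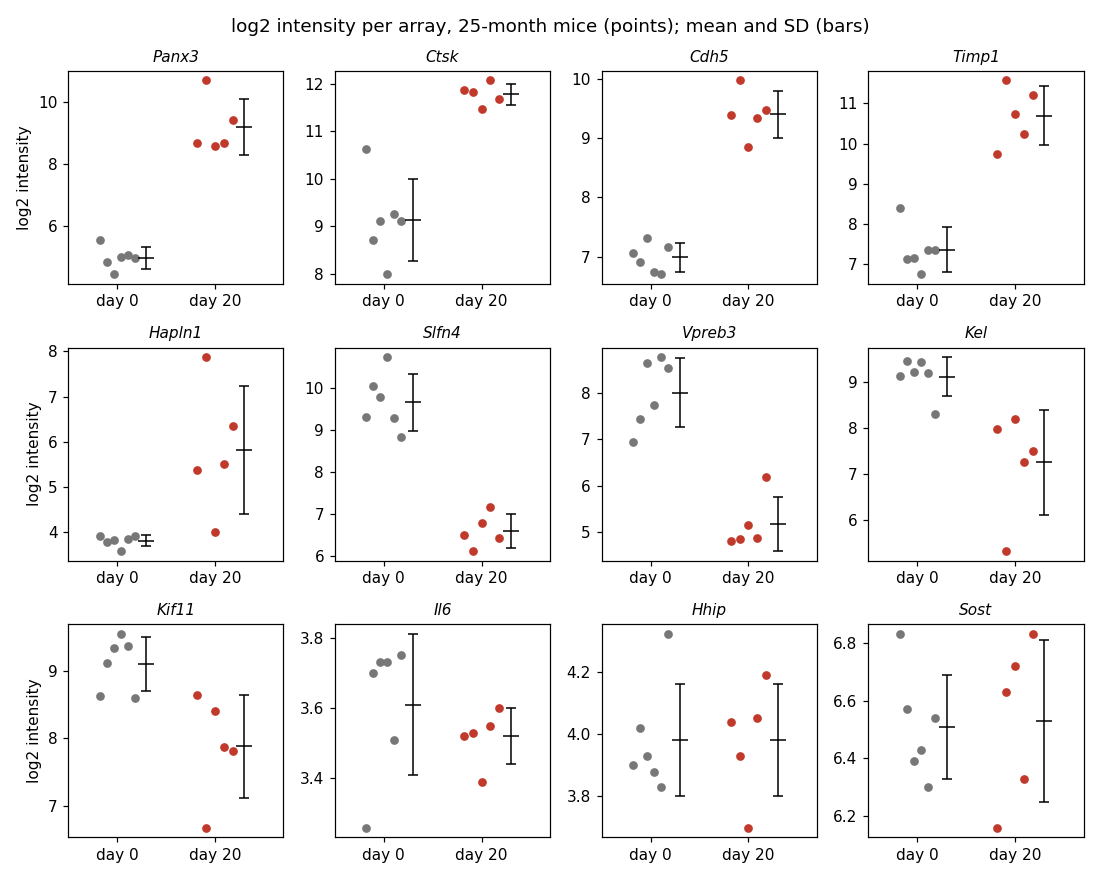
Log2 intensity (y axes, each with its own scale) of 12 genes on the 6 day 0 arrays (grey) and the 5 day 20 arrays (red) of 25-month mice; bars give mean and SD. The groups are separate for Panx3, Ctsk, Cdh5, Timp1, Hapln1, Slfn4, Vpreb3 and Kel, and overlap for Kif11, Il6, Hhip and Sost.

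To place the lists that moved as blocks, promoter windows of 300 bases (250 before to 50 after a gene's start) were taken from RefSeq on GRCm38.p6. They were searched on both strands for short motifs chosen for each list. Shares of a list count genes with any matching window, and shares of all windows count windows. A match is a description of letters and not a site. The cell-cycle element TTTGAA was in 24 of the 32 mitosis genes with a window (75%) and in 17.9% of all 32851 windows, and CCAAT in 23 of the 32 (71.9%) and in 37.4% of all windows. AGATAA, the GATA motif, was in 6 of 13 erythroid genes (46.2%; 11.2% of all windows), and TTGCNNAA, the C/EBP motif, in 7 of 20 neutrophil genes (35%; 10.8%). For DNA replication genes, TTTCCCGC was in 4 of 24 (16.7%; 1.07%) and TTTGGCGC in 5 of 24 (20.8%; 0.514%), both written for E2F. The RUNX motif TGTGGT was in 1 of 8 osteoblast genes (16.8% of all windows) and the AP-1 motif TGANTCA in 0 of 8 osteoclast genes (7.81%). One member of each of 3 lists is shown because its list fell and its window holds the motif, in capitals, as read 5′ to 3′ along the gene's strand (an inverse match appears as its complement). They are Kif11, a mitotic spindle motor (chr19:37376132-37376431, plus strand, with CCAAT as ATTGG and TTTGAA as TTCAAA), Kel, a red cell surface protein (chr6:41704276-41704575, minus strand, AGATAA), and Ltf, the neutrophil granule protein lactoferrin (chr9:111019042-111019341, plus strand, TTGCNNAA on the opposite strand).
Kif11: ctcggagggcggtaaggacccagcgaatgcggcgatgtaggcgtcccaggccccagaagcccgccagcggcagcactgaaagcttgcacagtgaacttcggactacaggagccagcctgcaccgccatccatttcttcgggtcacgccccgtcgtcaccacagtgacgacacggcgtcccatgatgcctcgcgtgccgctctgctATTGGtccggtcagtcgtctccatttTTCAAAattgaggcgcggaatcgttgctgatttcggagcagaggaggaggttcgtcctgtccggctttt
Kel: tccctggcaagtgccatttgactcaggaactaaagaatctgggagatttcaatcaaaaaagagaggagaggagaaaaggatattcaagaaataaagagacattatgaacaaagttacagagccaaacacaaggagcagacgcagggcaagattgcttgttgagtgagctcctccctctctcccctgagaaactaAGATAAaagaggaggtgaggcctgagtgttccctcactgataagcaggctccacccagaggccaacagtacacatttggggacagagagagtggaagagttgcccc
Ltf: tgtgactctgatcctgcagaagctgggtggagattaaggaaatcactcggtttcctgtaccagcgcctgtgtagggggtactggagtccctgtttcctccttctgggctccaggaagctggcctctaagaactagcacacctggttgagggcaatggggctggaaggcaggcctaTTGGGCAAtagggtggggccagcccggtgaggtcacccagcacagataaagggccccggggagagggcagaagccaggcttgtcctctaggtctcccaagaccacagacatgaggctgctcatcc

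Bone-forming genes stood above baseline without exception among those measured. All 14 members of the osteoblast and bone matrix list were called higher, beside 19.1% of all genes, and in all 14 the groups did not overlap. Their median change was 2.25, beside 0.012 over all genes. Ifitm5, an osteoblast membrane protein, measured 9.0, 10.54, 9.13, 9.49 and 9.88 at day 20 and 6.37 to 7.11 (median 6.49) at day 0, a change of 3.01 ± 0.35. Alkaline phosphatase (Alpl), which frees phosphate for mineral, measured 9.28, 10.91, 9.54, 9.62 and 10.33 against 6.59 to 8.01 (median 6.89), a change of 2.92 ± 0.36. The carboxypeptidase Cpz changed by 2.92 ± 0.32 and Sp7 (osterix), the transcription factor that commits cells to the osteoblast fate, by 2.72 ± 0.34. Col1a1, the main collagen chain of bone, rose by 2.29 ± 0.33 and bone sialoprotein (Ibsp) by 2.06 ± 0.27. Replicate 2 was the highest day 20 array in Ifitm5, Alpl, Cpz and Sp7, while in Col1a1 (12.35, 12.28, 11.78, 12.50 and 12.20) replicate 4 was. Neither Col1a1 (0.86) nor Ibsp (0.99) was called with day 0 replicate 1 as the only baseline array.

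The osteoblast list was called as fully without day 0 replicate 1, without day 20 replicate 2 and without day 20 replicate 3 (14 of 14 each time). With day 0 replicate 1 as the only baseline array, 6 of 14 were called higher. Its medians were 1.07 at day 5, 2.14 at day 10 and 2.25 at day 20.

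Osteocyte genes, expressed by the cells buried in bone matrix, were mostly raised. Of 12 members 9 were called higher and 1 lower, with a median of 1.22. Dmp1, a matrix protein of osteocytes that controls mineral, measured 10.07, 10.56, 9.57, 10.53 and 10.22 at day 20 and 6.37 to 8.84 (median 7.31) at day 0, a change of 2.77 ± 0.43. The groups were apart, with day 0 replicate 1 closest to day 20. Phex, the peptidase-like regulator of phosphate handling, changed by 2.53 ± 0.36, Ptprz1 by 2.39 ± 0.34, Mepe, a mineralization regulator, by 1.30 ± 0.21, and Dkk1, a secreted Wnt inhibitor, by 1.79 ± 0.27. Tnfsf11 (RANKL), the cytokine that drives osteoclast formation, rose by 1.14. Sost, whose product sclerostin is the mature osteocyte's brake on bone formation, measured 6.16, 6.63, 6.72, 6.33 and 6.83 against 6.30 to 6.83 (median 6.49). Its groups overlapped fully, and its change of 0.02 ± 0.12 had an interval from -0.23 to 0.27. Fgf23, the osteocyte hormone of phosphate excretion, fell by 0.70. Medians of the list were 0.01 at day 5, 1.08 at day 10 and 1.22 at day 20. When the baseline was day 0 replicate 1 alone, 1 member was called higher and 1 lower, and neither Dmp1 (1.34) nor Phex (1.62) was called.

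Osteoclast genes were raised too, 14 of 16 members with none lower and a median of 1.18. Ctsk (cathepsin K), the protease that digests bone collagen, measured 11.86, 11.83, 11.47, 12.07 and 11.68 at day 20 and 8.0 to 10.63 (median 9.12) at day 0. Every day 20 array lay above every day 0 array, and the change was 2.64 ± 0.30. The fusion proteins Ocstamp (3.01 ± 0.35) and Dcstamp (2.63 ± 0.22), the proton pump subunit Atp6v0d2 (2.82 ± 0.34) and the receptor Oscar (2.78 ± 0.30) moved as far. Tartrate-resistant acid phosphatase (Acp5) changed by 1.60 ± 0.32, with 11.31, 12.07, 11.93, 11.43 and 12.02 against 9.41 to 11.21 (median 10.05). Tnfrsf11a (RANK), the receptor for RANKL, rose by 1.48 and the calcitonin receptor Calcr by 0.63 ± 0.11. Car2, carbonic anhydrase (-0.77), and the integrin Itgb3 (-0.11) were not called. Without day 0 replicate 1, 12 were called, and against it alone 6. Medians were 0.21 at day 5, 0.69 at day 10 and 1.18 at day 20.

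Cartilage genes stood between these and baseline. Of 25 cartilage matrix members 10 were called higher and 2 lower, with a median of 0.68, whereas at day 10, against the same day 0 arrays, 24 were called higher with a median of 2.82. Acan, the large proteoglycan of cartilage, measured 7.10, 9.06, 6.19, 6.82 and 8.03 at day 20 and 4.76 to 5.12 (median 4.95) at day 0. The day 20 arrays were spread over a wide range with replicate 2 highest and replicate 3 lowest, and none overlapped day 0. Its change was 2.49 ± 0.48, and its mean of 11.47 at day 10 compares with 7.44 at day 20. Hapln1, which links aggrecan to hyaluronan, measured 5.38, 7.87, 3.99, 5.51 and 6.34 against 3.58 to 3.91 (median 3.83), a change of 2.01 ± 0.50, from a mean of 10.39 at day 10. The fibrillar collagen Col11a1 changed by 2.94 ± 0.35 and Col2a1, the main cartilage collagen, by 1.12 ± 0.35 (adjusted p = 0.012). Without a called change were Sox9, the transcription factor of chondrocytes (0.13 ± 0.21, day 10 mean 8.34 and day 20 mean 6.10), Matn1, a cartilage matrix protein (0.24 ± 0.18), and Ihh, the hedgehog ligand of prehypertrophic cells (0.25 ± 0.18). None of these 3 had an interval inside ±0.5, and Matn1 was called in a fit of the 11 arrays alone.

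Scrg1 was below baseline at day 5 (-1.73 ± 0.43), above it at day 10 (2.13) and below it again at day 20. It measured 4.80, 5.78, 4.50, 4.77 and 4.98 at day 20 against 6.66 to 7.84 (median 7.14) at day 0, and its group means were 5.51 at day 5 and 9.38 at day 10. The day 20 change was -1.69 and not called with day 0 replicate 1 as the only baseline array. Sox6, a transcription factor shared by chondrocytes and red cell precursors, was the other cartilage list member called lower (-1.06). Against day 0 replicate 1 alone, 1 cartilage matrix member was called higher and 0 lower.

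Genes of hypertrophic cartilage, the enlarged cells that precede bone, were called higher in 9 of 11 members, with a median of 1.86. Col10a1, their own collagen, measured 8.30, 10.72, 7.65, 8.03 and 9.07 at day 20 and 6.05 to 6.38 (median 6.24) at day 0, with all day 20 arrays above day 0. Its change was 2.53 ± 0.37. The list count was 5 higher with day 0 replicate 1 as the only baseline array. Pth1r, the parathyroid hormone receptor of prehypertrophic cells and osteoblasts, rose by 2.27 ± 0.29. Several members, such as Panx3 and Alpl, are also osteoblast genes. Replicate 2 was highest of day 20 for the list as a whole, with a mean level of 9.12 where the other arrays lay between 7.89 and 8.50.

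Fibrous matrix genes were all raised, 21 of 21 members with a median of 2.12, and in 19 of them the groups did not overlap. Col12a1, a collagen on the surface of fibrils, measured 10.24, 10.97, 9.64, 10.49 and 10.59 at day 20 and 6.95 to 8.34 (median 7.22) at day 0, a change of 3.02 ± 0.30. Col5a2, a fibril-nucleating collagen, changed by 2.87 ± 0.32. Medians of the list were 2.18 at day 5, 3.51 at day 10 and 2.12 at day 20. The count was 14 of 21 against day 0 replicate 1 alone.

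Matrix proteases and their inhibitors followed, with 13 of 17 called higher, 1 lower and a median of 0.93. Mmp16 (2.99 ± 0.27), Mmp2 (2.67 ± 0.24) and Mmp14 (2.58 ± 0.24), metalloproteinases of stromal and bone cells, did not overlap with day 0. Mmp13, a collagenase of hypertrophic cartilage and osteoblasts, was chosen after its values were seen. It measured 11.67, 11.71, 11.22, 11.92 and 11.59 against 8.68 to 10.52 (median 9.0), a change of 2.40 ± 0.27. Mmp8, named above, was the member called lower. With day 0 replicate 1 as the only baseline array, 7 were called higher and 0 lower. The hydroxylases of collagen proline, P4ha2 (2.02 ± 0.20) and P4ha1 (1.66 ± 0.19), stood in the hypoxia list and rose with the collagens.

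Vessel genes were higher at day 20. Of 23 endothelial members 20 were called higher and 1 lower, with a median of 1.18. Cdh5 (VE-cadherin), the junction protein of endothelial cells, measured 9.38, 9.97, 8.85, 9.33 and 9.48 against 6.71 to 7.32 (median 7.0), a change of 2.42 ± 0.16. Its groups were far apart on the scale of their own spread. Emcn (endomucin), abundant in the vessels of growing bone, changed by 2.46 ± 0.17, and the transcription factor Sox18 by 1.86 ± 0.22. The VEGF receptor Kdr and the angiopoietin receptor Tek rose by 1.38 each and Pecam1 by 0.80. Vwf, the clotting factor of endothelium, megakaryocytes and platelets, fell by 1.54. Against day 0 replicate 1 alone, 18 of 23 were called higher and 1 lower. Pericyte and smooth muscle genes were called higher in 7 of 12 (2 under the same restriction), led by the PDGF receptor Pdgfrb (1.63 ± 0.18) and Mcam (1.61 ± 0.18). Acta2, smooth muscle actin, measured 7.15, 8.73, 7.17, 7.45 and 8.39 against 6.09 to 7.08 (median 6.53). It was still higher by 1.20 ± 0.25, after a mean of 10.13 at day 10.

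Genes of the signalling pathways that drive bone formation were partly raised. Of 30 BMP and TGF-beta genes 18 were called higher and 1 lower (median 0.64), and 5 and 0 with day 0 replicate 1 as the only baseline array. Among ligands, Bmp2 rose by 0.65, Bmp4 by 0.90, Bmp5 by 1.19 and Tgfb3 by 1.60 ± 0.23, while Inhba, the activin subunit, fell by 0.69 and Bmp6 (0.26) was not called. Among receptors, Tgfbr1 rose by 1.48 ± 0.14, Bmpr2 by 1.26, Acvr1 by 1.11 and Bmpr1a by 0.80. Bmp1, a procollagen-processing protease despite its name, changed by 2.37 ± 0.22. The target Id3 measured 8.96, 10.63, 9.74, 9.70 and 10.29 against 7.12 to 8.03 (median 7.78), a change of 2.14 ± 0.23, and the inhibitors Smad6 (1.04) and Smad7 (0.65) rose as well. The extracellular antagonists Nog (-0.19), Chrd (-0.04) and Grem1 (0.39) were not called.

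Of 30 Wnt genes 18 were called higher and 1 lower (median 0.67), and 6 and 1 with day 0 replicate 1 as the only baseline array, where Sfrp2 (1.08) was not called. Those that changed most were secreted inhibitors and modulators. Wif1, which binds Wnt ligands, measured 7.80, 9.45, 8.28, 8.51 and 9.0 against 5.58 to 6.54 (median 6.06), with no overlap and a change of 2.56 ± 0.32. Frzb (2.19 ± 0.35) and Sfrp2 (2.14 ± 0.31) are decoy receptors, and Rspo3 (1.89 ± 0.18) strengthens Wnt signals. The co-receptors Lrp5 (0.93) and Lrp6 (0.86) rose, the ligand Wnt16 fell by 0.63, and the target gene Axin2 (0.03) was not called. All 11 members that were not called, Axin2 among them, had an interval inside ±0.5.

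Hedgehog genes were called higher in 8 of 14 (median 0.48; 3 with day 0 replicate 1 as the only baseline array), with the transcription factor Gli3 (1.58 ± 0.19), the co-receptor Boc (1.37 ± 0.16), the signal transducer Smo (1.23 ± 0.17) and the receptor and target Ptch1 (1.02 ± 0.26). Genes of FGF, PTH and IGF signalling were called higher in 9 of 17 and lower in 1 (5 and 0 under that restriction), with Igfbp3, an IGF-binding protein, at 1.74 ± 0.21 and the receptor Fgfr1 at 1.58 ± 0.17.

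**Figure D3:**
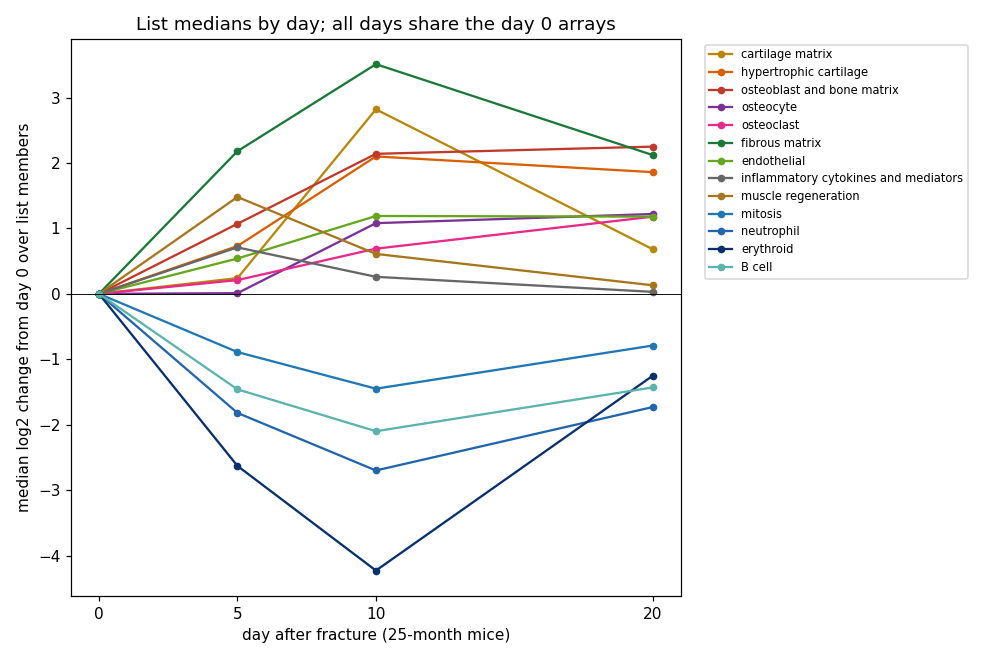
Median log2 change from day 0 over the members of 13 lists (y axis) in 25-month mice at days 5, 10 and 20 (x axis); lines join the medians and every day is set against the same 6 day 0 arrays. The erythroid list goes from -4.23 at day 10 to -1.25 at day 20 and cartilage matrix from 2.82 to 0.68, while the osteoblast list stays near its day 10 median and the osteoclast list is higher at day 20 than at day 10.

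Marrow and blood lists were the main blocks below baseline. All 21 neutrophil members were called lower, beside 15.8% of all genes, with a median of -1.73, and the groups did not overlap in 20. Ltf, whose promoter window is printed above, measured 9.37, 8.19, 9.55, 10.10 and 9.52 at day 20 and 11.12 to 11.90 (median 11.53) at day 0. All day 20 arrays were low, replicate 2 lowest, and the change was -2.15 ± 0.46 (adjusted p = 0.00028). Elane, the elastase of immature neutrophils, fell by 1.82 and Mpo, myeloperoxidase, by 1.45. Camp fell by 1.25 and Ngp by 1.04, both granule proteins of late precursors, and neither was called without day 20 replicate 2. Ly6g, the neutrophil surface marker from a family of similar genes, fell by 2.17. Medians were -1.82 at day 5, -2.70 at day 10 and -1.73 at day 20. Only 3 of 21 were called lower against day 0 replicate 1 alone.

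B cell genes were lower in 21 of 23 members and higher in 1, with a median of -1.43. Rag1, the recombinase of lymphocyte precursors, measured 3.82, 3.76, 4.08, 4.42 and 4.27 against 4.84 to 6.77 (median 5.94), a change of -1.77 ± 0.22 without overlap. Spib (-2.19 ± 0.31), a transcription factor of B cells, and Vpreb1 (-2.03 ± 0.32), part of the surrogate light chain, fell as far. Cd79a, a chain of the B cell receptor, changed by -1.77 ± 0.38, with day 20 values of 4.48, 4.90, 6.10, 4.75 and 5.86 overlapping day 0 replicate 4 at 5.35. The count was 3 against day 0 replicate 1 alone.

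Plasma cell genes split, where 19.1% of all genes were called higher and 15.8% lower. Jchain, which joins antibody units, fell by 1.89 ± 0.47 and Mzb1 by 1.21 ± 0.27. Fkbp11 rose by 2.21 ± 0.23 and Sdc1 by 1.81 ± 0.18. Both are also made by other secretory or epithelial and stromal cells. In all, 4 of 11 were called higher and 5 lower, 4 and 1 without the dimmer 50% of genes, and 2 and 1 with day 0 replicate 1 as the only baseline array.

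The erythroid list was lower in 9 of 16 members with a median of -1.25, and 7 were not called. Kel, whose window is printed above, measured 7.98, 5.34, 8.20, 7.27 and 7.51 at day 20 and 8.31 to 9.45 (median 9.21) at day 0. All 5 arrays lay below day 0, replicate 2 far below the other 4. The change was -1.86 ± 0.51. Ermap changed by -1.60 ± 0.43 and Alas2, the first enzyme of heme synthesis in red cells, by -1.34 ± 0.37. Gata1 (-1.18 ± 0.32) and Klf1 (-1.07 ± 0.35) are transcription factors of red cell precursors, and Klf1 was not called without day 20 replicate 2. Rhag, a red cell membrane protein, was not called: it measured 9.06, 5.66, 9.33, 8.23 and 8.47 against 8.69 to 9.82 (median 9.57). Means of Kel were 9.12 at day 0, 6.08 at day 5, 4.07 at day 10 and 7.26 at day 20, and list medians -2.63, -4.23 and -1.25 at days 5, 10 and 20. Platelet and megakaryocyte genes were lower in 7 of 7 (median -1.58), led by the receptor chains Gp5 (-2.12 ± 0.38), Gp9 (-1.95 ± 0.40) and Itga2b (-1.81 ± 0.29). The platelet chemokine Ppbp, lower by 1.58, was not called without day 20 replicate 2. Against day 0 replicate 1 alone, 0 erythroid and 0 platelet members were called.

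Mast cell, basophil and eosinophil genes were lower in 13 of 18 (median -0.83; 5 without the dimmer 50% of genes and 2 against day 0 replicate 1 alone), among them the eosinophil granule protein Prg2 (-1.75 ± 0.49) and the basophil protease Prss34 (-1.82 ± 0.34). Of 13 blood stem and progenitor genes 7 were lower and 3 higher (4 and 2 without the dimmer 50% of genes, 0 and 1 against day 0 replicate 1 alone). Myb, a transcription factor of progenitors, measured 6.95, 5.92, 7.80, 7.07 and 7.34 against 8.34 to 9.10 (median 8.91), a change of -1.78 ± 0.33. Cd34, a surface protein of progenitors and of endothelium, rose by 0.99 ± 0.15. In contrast to the blood lineages, 8 of 11 marrow stroma and niche genes were called higher and 1 lower (median 0.68). Pdgfra, the PDGF receptor of stromal cells, rose by 1.74 ± 0.17 and Foxc1, a transcription factor of niche cells, by 1.68 ± 0.19. Medians of that list were -0.18, 0.06 and 0.68 at days 5, 10 and 20, and 5 members were called higher against day 0 replicate 1 alone.

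**Figure D4:**
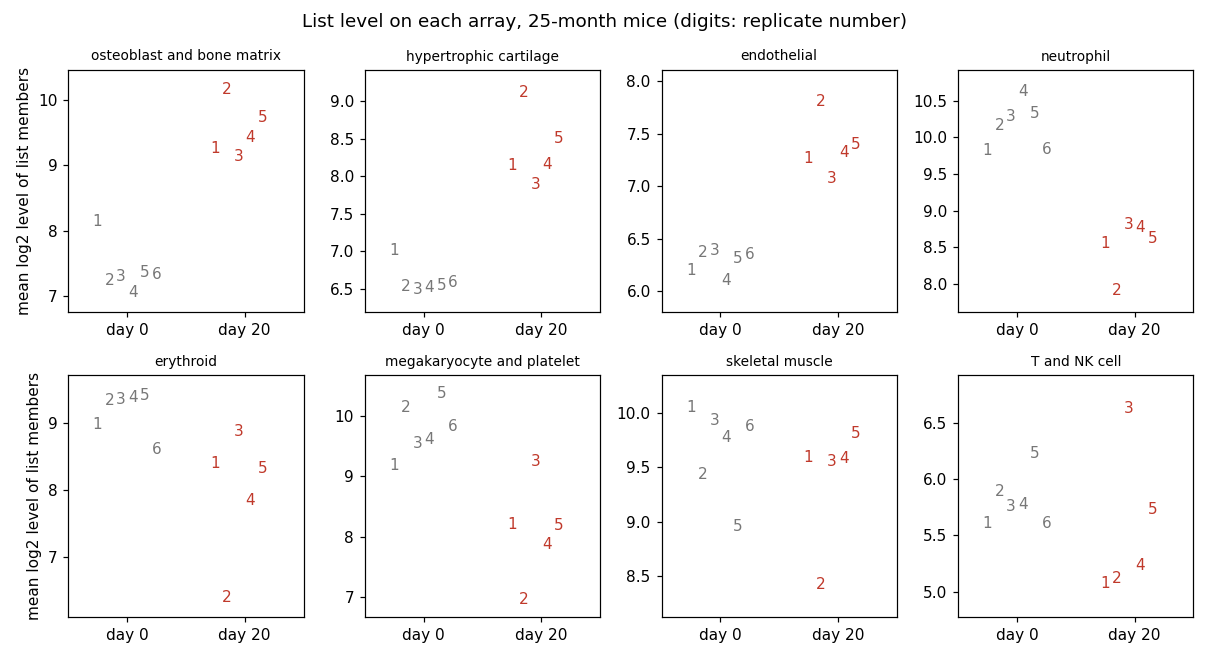
Mean log2 level over the members of 8 lists (y axes, each with its own scale) on each array of 25-month mice at day 0 (grey) and day 20 (red); the digit is the replicate number. Day 0 replicate 1 is high for osteoblast (8.14) and hypertrophic genes, day 20 replicate 2 is low for neutrophil (7.92), erythroid (6.41), platelet and skeletal muscle genes, and day 20 replicate 3 is high for T and NK cell genes (6.63).

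Cell-division genes were lower. Of 30 DNA replication genes 22 were called lower and 0 higher (median -0.64), and of 38 mitosis genes 34 and 0 (median -0.79). Kif11, whose window is printed above, measured 8.64, 6.68, 8.40, 7.87 and 7.81 at day 20 and 8.60 to 9.54 (median 9.22) at day 0. Replicate 1 reached into the day 0 range and replicate 2 lay lowest. The change was -1.22 ± 0.29. The spindle protein Prc1 changed by -1.16 ± 0.25, the condensin subunit Ncapg by -1.07 ± 0.26 and the kinetochore motor Cenpe by -0.99 ± 0.22. In replication, the helicase factor Cdc45 changed by -0.93 ± 0.15, the polymerase Pola1 by -0.93 ± 0.20 and the licensing factor Cdc6 by -0.93 ± 0.28. Mki67, the proliferation marker chosen after its values were seen, measured 10.24, 8.50, 10.15, 9.60 and 9.69 against 9.98 to 10.72 (median 10.63), a change of -0.86 ± 0.27 (adjusted p = 0.011).

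Day 20 replicate 2 carried much of the count for replication. Without it, 10 replication and 26 mitosis genes were called lower, and neither Cdc6 nor Mki67 was called. The mean level of the replication list ran from 6.51 (replicate 2) to 7.66 (replicate 3) at day 20 and from 7.31 to 7.94 at day 0, and that of the mitosis list from 6.83 to 7.86 and from 7.77 to 8.45. Erythroid and neutrophil levels were lowest in the same array, replicate 2, and erythroid levels highest in replicate 3. The part of marrow content in the division genes was not tested. Medians of the mitosis list were -0.89, -1.45 and -0.79 at days 5, 10 and 20, and against day 0 replicate 1 alone 0 genes of either list were called.

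Among 36 inflammatory cytokines and mediators, 10 were called higher, 5 lower and 21 neither, beside 19.1% higher and 15.8% lower among all genes. With the name numbering as a factor the counts were 5 and 4, and against day 0 replicate 1 alone 4 and 2. The median was 0.03, after 0.71 at day 5 and 0.26 at day 10. Of the genes that marked the early response, chosen here after their values were seen, the cytokine Il6 measured 3.52, 3.53, 3.39, 3.55 and 3.60 at day 20 and 3.26 to 3.75 (median 3.71) at day 0, against a mean of 6.95 at day 5. The groups overlapped. Its change was -0.10 with an interval from -0.95 to 0.76 in the fit of all 41 arrays and from -0.31 to 0.12, inside ±0.5, in a fit of the day 0 and day 20 arrays alone. The monocyte chemokine Ccl2 had means of 6.03, 9.16, 7.39 and 6.31 at days 0, 5, 10 and 20 (change 0.28 ± 0.33), and Cxcl5, a neutrophil attractant, of 5.27, 8.56, 5.10 and 4.57 (-0.70 ± 0.42). Ccl7 (0.65 ± 0.37) and the acute-phase gene Saa3 (0.79 ± 0.33) were not called in the fit of all arrays. In the fit of the 11 arrays alone, limma called Ccl7 (adjusted p = 0.019) and Cxcl5 (adjusted p = 0.035). Saa3 was called under 5 alternatives, among them leaving out day 20 replicate 2 (0.96). In the fit of all arrays, none of these 5 genes had an interval inside ±0.5.

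Other mediators were called away from baseline. Ptgs2 (cyclooxygenase 2), the enzyme of prostaglandin synthesis, measured 6.48, 7.80, 6.49, 6.68 and 6.88 against 4.88 to 6.04 (median 5.55), higher by 1.40 ± 0.32. Tnfaip6, a matrix protein induced by TNF, changed by 1.56 ± 0.31, from means of 8.39 at day 5 and 7.91 at day 10 to 5.97. Csf1, the growth factor of macrophages and osteoclasts, rose by 1.29, Ccl8 by 1.39, Ccl9 by 1.04 and Lif by 1.06. Below baseline were Il1a (-1.82 ± 0.28), Ccl6 (-1.59 ± 0.22), Tnf (-1.14), Osm (-0.98) and the decoy receptor Il1r2 (-1.23). In Il1a, day 20 replicate 3 measured 5.50 where the other day 20 arrays lay between 3.37 and 3.71.

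Macrophage genes were called higher in 4 of 26 and lower in 10 (median -0.21), beside 19.1% and 15.8% of all genes. The lower count was 5 without the dimmer 50% of genes, 4 with the name numbering as a factor and 4 against day 0 replicate 1 alone. Csf1r, the receptor for Csf1, measured 8.90, 9.44, 9.16, 9.13 and 9.56 against 7.69 to 8.34 (median 7.84), higher by 1.29 ± 0.16, and the lysosomal protein Cd68 by 1.48 ± 0.25. Both genes are also expressed by osteoclasts. Adgre1, the tissue macrophage marker, changed by -0.12 ± 0.20 and the mannose receptor Mrc1 by -0.14 ± 0.22, neither called. Spic, the transcription factor of iron-recycling macrophages, fell by 1.80, the hemoglobin receptor Cd163 by 1.10 and Itgam, shared with neutrophils, by 1.35. Day 0 replicate 5 was high for this list, with 7.39 where the other day 0 arrays lay between 6.65 and 6.84.

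Interferon response genes were lower in 6 of 25, beside 15.8% of all genes, and higher in 0 (median -0.26), with Rsad2 (-1.35 ± 0.34), Oas3 (-1.16 ± 0.27) and Irf9 (-0.71) among them. In all 6 the groups overlapped. The count was 10 without day 0 replicate 6 and with array quality weights, 4 without day 20 replicate 2 and 0 against day 0 replicate 1 alone. Of 9 genes for antigen presentation by MHC II 4 were lower, led by H2-Ob (-1.43 ± 0.26) and H2-Oa (-1.25 ± 0.25), which are made mainly in B cells, and 1 was called against day 0 replicate 1 alone or without the dimmer 50% of genes. Of 14 complement genes 4 were called higher and 3 lower, beside 19.1% and 15.8% of all genes, and 1 and 0 against day 0 replicate 1 alone. C3ar1, a receptor of macrophages, rose by 0.94 ± 0.22, and C5ar1, a receptor of neutrophils, fell by 1.18 ± 0.20.

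The count of T and NK cell genes changed with the arrays used. Of 26 members 2 were called higher and 8 lower (median -0.24). Cd3d, a chain of the T cell receptor complex, measured 4.66, 4.64, 8.65, 5.10 and 6.88 at day 20 and 5.17 to 7.19 (median 5.73) at day 0. Replicate 3 stood above all day 0 arrays and 3 others below all of them. Its change was 0.11 ± 0.43. Without day 20 replicate 3, 16 members were called lower and 0 higher, without day 0 replicate 1 the counts were 7 and 0, and without day 20 replicate 2 they were 5 and 3. The lower count was 5 without day 0 replicate 5 or in a fit of the 11 arrays alone, 3 with the name numbering as a factor, and 1 without the dimmer 50% of genes or against day 0 replicate 1 alone. Cd3g, a T cell receptor chain, and Nkg7, a granule protein of killer cells, were called lower only without day 20 replicate 3 among the alternatives run. Ncr1, an activating receptor of NK cells, was lower in every day 20 array (-1.37 ± 0.15). At days 5 and 10, against the same day 0 arrays, 21 and 22 members were called lower.

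Skeletal muscle genes were mostly not called. Of 29 skeletal muscle genes 27 were not called, 1 was higher and 1 lower (median -0.40). None of the 27 had an interval inside ±0.5, so these arrays do not settle whether muscle RNA had changed. Ckm, muscle creatine kinase, measured 10.65, 9.91, 11.30, 10.79 and 11.46 against 10.78 to 12.03 (median 11.67), a change of -0.72 ± 0.29 (adjusted p = 0.052). The list's mean level was 8.42 in day 20 replicate 2 and 9.55 to 9.81 in the other day 20 arrays. Leaving out day 0 replicate 5, which was low in muscle RNA at 8.96, gave 7 members lower, and leaving out day 20 replicate 3 or replicate 5 gave 4. Median centring gave 6 lower, leaving out the dimmer 50% of genes 5, and quantile normalization or leaving out the dimmest 25% gave 4, while 0 were lower without day 0 replicate 1 or replicate 6 and with the name numbering as a factor. Ckm was called under median centring and both filters on dim genes. Muscle regeneration genes were called higher in 2 of 12 (median 0.13), beside 19.1% of all genes, after medians of 1.48 at day 5 and 0.61 at day 10. The count was 4 in a fit of the 11 arrays alone, and 1 without the dimmer 50% of genes or without day 20 replicate 5. The acetylcholine receptor subunit Chrna1 was 1 of the 2 called in the fit of all arrays, at 0.84 ± 0.28. It measured 5.85, 5.09, 6.30, 6.01 and 7.22 against 4.80 to 5.61 (median 5.36), and was not called without day 20 replicate 5.

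Mitochondrial respiration was the list with the most members inside the interval and not called, 21 of 29, with a median of 0.05 and 1 member called each way. Among all 19938 genes 10929 lay inside and were not called, while 19.1% were called higher and 15.8% lower. Of 22 hypoxia and glycolysis genes 15 were not called, 11 of these inside the interval, near the share of all genes. The other members were 3 higher and 4 lower, with 1 lower without day 20 replicate 2 or with the name numbering as a factor, and 0 against day 0 replicate 1 alone. Vegfa, the main vessel growth factor (0.04), Slc2a1, the glucose transporter (-0.00), Pgk1 (-0.02) and Ldha (-0.02) were among those not called, while Hif1a, the hypoxia-induced factor itself, was higher by 1.24 ± 0.22. Of 19 immediate early and heat shock genes 17 were not called. Hspa1a, a heat shock protein chosen after its values were seen, measured 6.05, 5.52, 5.53, 5.80 and 5.72 against 5.63 to 5.94 (median 5.78), a change of -0.06 ± 0.12. Of 9 epidermis genes none was called (median -0.06). Of 9 nerve genes 1 was called higher and 2 lower, near the 19.1% and 15.8% of all genes.

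Fat cell genes stood above baseline in 7 of 16 and below in 1 (median 0.47; 3 higher with the name numbering as a factor or against day 0 replicate 1 alone), after medians of 0.16 at day 5 and -0.52 at day 10. Lpl, the lipase that frees fatty acids, measured 9.77, 10.24, 9.56, 9.76 and 9.99 against 8.41 to 8.88 (median 8.73), higher by 1.18 ± 0.21. Fasn, fatty acid synthase, rose by 0.95 ± 0.17 and the lipid droplet protein Plin1 by 0.73 ± 0.22. Adiponectin (Adipoq) had means of 7.66, 7.40, 5.82 and 8.30 at days 0, 5, 10 and 20. It was not called in the fit of all arrays (0.64 ± 0.33) but was called in a fit of the 11 arrays alone. Of 13 senescence genes and secreted factors 4 were called higher and 2 lower (2 and 1 against day 0 replicate 1 alone). Among all genes the shares called higher and lower were 19.1% and 15.8%. The urokinase receptor Plaur, also a neutrophil gene, was lowest in the senescence list at -1.42 ± 0.21.

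A second reading took the genes from other mice. Young mice had 36.3% of genes called at day 5 (20% higher, 16.3% lower) and 43% at day 10 (23.2% higher, 19.8% lower). Those with a change of at least 1 log2 unit were followed in the old day 20 comparison, with which they share no array. Of 1015 genes raised in young mice at day 5, 799 (78.7%) were called higher in old mice at day 20, beside 19.1% of all genes, 42 lay inside the interval, 169 were undetermined and 5 were called lower. Of 684 genes lowered at day 5, 586 (85.7%) were called lower, beside 15.8% of all genes, and 6 lay inside the interval. Of 1545 genes raised at day 10, 1333 (86.3%) were called higher and 27 lay inside. Of 1015 genes lowered at day 10, 951 (93.7%) were called lower and 0 lay inside. Median changes in old mice at day 20 were 1.01, -1.13, 1.04 and -1.02 for these sets in turn. The same sets had medians of 1.15 and -1.26 in old mice at day 5 and of 1.58 and -1.70 at day 10. Against day 0 replicate 1 alone, 533, 161, 832 and 236 were called in the direction of the set.

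The few genes that had come back were chosen by their interval and are described without a test. Hhip, a decoy receptor that binds hedgehog ligands, measured 4.04, 3.93, 3.70, 4.05 and 4.19 at day 20 and 3.83 to 4.32 (median 3.91) at day 0, with group means of 5.60 at day 10 and 3.98 at both ends. Gfpt2, an enzyme of hexosamine synthesis, had means of 5.38, 7.11, 7.11 and 5.47 at days 0, 5, 10 and 20, and Eps8, an actin regulator, of 6.04, 7.27, 7.24 and 6.13. Abcb1b, a drug efflux pump, peaked at day 5 (6.19) and was at 4.88 at day 20 against 4.82. Mymx (myomixer), which fuses muscle precursors, was at 6.53 at day 5 and 5.23 at day 20 against 5.39. The retinoic acid enzyme Aldh1a3 was at 6.78 at day 10 and 5.25 at day 20 against 5.10. Tmem106a and A4galt completed the 8 raised genes with the largest young change. On the lowered side only 6 genes lay inside: the chromatin organizer Satb1, the receptor partner Ramp1, Gdap1, the sulfotransferase Chst15, the translation inhibitor Pdcd4 and Lynx1. Pdcd4 had means of 9.05, 8.17, 8.39 and 8.97 at days 0, 5, 10 and 20.

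A further 11 young responders were called in old mice at day 20 in the direction opposite to their young change. Cd163, raised by 1.54 in old mice at day 5, was lower by 1.10 ± 0.28 at day 20, and the heme oxygenase gene Hmox1, which degrades heme, went from 0.92 to -0.77. Inhba, Ms4a6c and P2ry12 did likewise. In the other direction, the leptin receptor Lepr, which marks marrow stromal cells, went from -0.99 at day 5 to 0.68 ± 0.24, with Gdpd2 (-1.48 to 0.89), Rnu12 (-0.68 to 1.04) and Dapk2, which was not below baseline in old mice at day 5 (0.34). Scrg1 and the small nucleolar RNA Snora52 were the 2 from day 10. In old mice Snora52 changed by only 0.17 at day 10 and by -1.09 ± 0.32 at day 20.

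The old change was set against the young change from day 0 to day 20 gene by gene. In young mice 7610 genes were called (38.2%). For the difference between the changes, old minus young, limma called 0 of 19938 genes, and 1209 (6.06%) had an unadjusted p under 0.05. A count of 0 does not show that both ages changed alike. The 5 genes with the smallest p were Slfn5, Ppp1r9a, Clec14a, Prr5l and Tgoln1. Clec14a, a surface protein of vessel endothelium, rose by 1.63 ± 0.14 in old mice and by 2.44 in young mice, a difference of -0.81 ± 0.20. For Slfn5 the changes were 0.44 and 1.33 (-0.89 ± 0.21). Ly6g fell by 2.17 in old and 3.56 in young mice (1.39 ± 0.74). Medians of the lists lay side by side at 2.25 old and 2.45 young for osteoblast and 0.68 and 0.43 for cartilage matrix genes. They were -1.73 and -2.46 for neutrophil, -0.79 and -1.21 for mitosis, -1.25 and -1.89 for erythroid and -1.58 and -2.23 for platelet genes. Other blood lists did not share that order or lay close: B cell -1.43 and -1.35, mast cell, basophil and eosinophil -0.83 and -0.70, progenitor -0.63 and -0.57, T and NK cell -0.24 and -0.28.

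**Figure D5:**
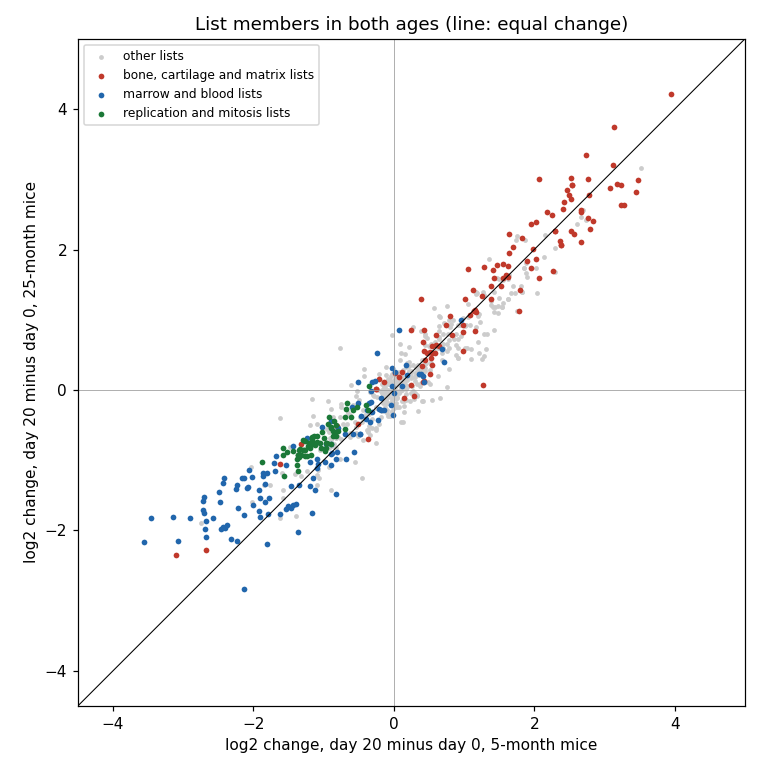
Log2 change from day 0 to day 20 of each list member in 5-month mice (x axis) and 25-month mice (y axis); the line marks equal change. Bone, cartilage and matrix genes (red) lie on both sides of the line at the upper right. Marrow and blood (blue) and division genes (green) lie mostly above it at the lower left, but not in every list. Neutrophil medians are -1.73 in old and -2.46 in young mice, while B cell medians are -1.43 and -1.35. No gene was called for the difference.

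The array also holds probe sets for microRNA genes, which bind RNA of the hairpin or its host transcript and not the mature microRNA alone. Of 272 such genes 16 were called higher and 39 lower, beside 19.1% and 15.8% of all genes. The higher count lay below the share of all genes and the lower count near it. The changes reported are those of the probe set, and the mature sequences (RefSeq, GRCm38.p6, seed bases 2 to 8 in capitals) are shown for the genes with the largest change each way and for the red cell microRNA gene Mir144. Mir350 (chr1:176772342-176772363, minus strand) changed by -1.34 ± 0.27, Mir340 (chr11:50069720-50069741, plus strand) by -1.18 ± 0.16, and Mir144 (chr11:78073047-78073066, plus strand) by -0.71 ± 0.16. Mir181b-2 (chr2:38853845-38853868, plus strand) rose by 0.88 ± 0.27 and Mir181b-1 (chr1:137966650-137966673, plus strand), which encodes the same mature sequence, by 0.72 ± 0.18.
miR-350-3p: uUCACAAAgcccauacacuuuc
miR-340-5p: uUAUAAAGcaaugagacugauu
miR-144-3p: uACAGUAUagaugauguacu
miR-181b-5p: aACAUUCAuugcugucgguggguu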

How the data were processed

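Total RNA of 41 tibia samples was measured on Affymetrix Mouse Gene 1.0 ST arrays. The authors deposited log2 normalized intensities, and per the submitters' processing notes they were made in Partek. For the version, the background correction and the summarization of probes, no source used here gives details. The authors' deposited table also holds, per the file headers, a p-value, a step-up adjusted p-value and a linear ratio for this contrast. The ratio was used only to check the direction, and the p-values as an alternative test. Both deposited value tables held the same values.

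Of 28815 probe sets, 21782 had 1 gene symbol in the platform annotation, 1598 had several and 5435 were not listed. The brightest probe set of each gene was kept, which gave 19938 genes. No normalization was added (array medians 5.374 to 5.483). A model of 8 group means was fitted to all 41 arrays with limma 3.58.1 in R 4.3.3, with moderated two-sided tests and Benjamini-Hochberg adjustment over 19938 genes. A gene lay at baseline where its 95% interval was inside ±0.5 log2 units. On simulated data for this comparison (19938 genes), shifts of 0.5, 1 and 2 were called in 64%, 94% and 99% of changed genes. Of the calls 3.8% were false. Far fewer genes were changed there than were called in the data, and the noise was independent, so these rates need not hold here. Each array is a different mouse by the labels.

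The members and the 38 lists were chosen with earlier results of these data known, and list tests are therefore not given. Genes named by rule were the 12 highest and 12 lowest called changes without overlap, up to 4 called members of each list with the largest change (2 with the smallest p where none was called), the 5 with the smallest p for the age difference, and up to 8 responders of young mice in each direction back inside the interval. Other list members are named for their role, chosen after their values were seen. Markers of cell types were also among the named genes. Alternatives covered normalization, filters on dim genes, probe set choice, moderation, array weights, blocks, the arrays in the fit, the authors' p-values and leaving out each array. Leaving out day 20 replicate 2 for the list counts was added after seeing the data.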

Additional observations from a re-analysis of the deposited data

Results flagged for a closer look

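Within the groups of day 0 and day 20, 530 sets of values were examined for 1 array standing apart, by the gap to its nearest neighbour over the range of the group (Dixon's 95% value), and 54 did (10.2%), where chance gives about 1 in 20. Members of a list share arrays, so these are not independent. Values below are log2 levels of that array, for genes or for the mean of a list, and no cause was tested.

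Day 0 replicate 1 stood above its group in the hypertrophic cartilage list (7.01), the osteoblast and bone matrix list (8.14), the Schwann cell and nerve list (6.19), the senescence and secreted factors list (6.52), the immediate early and heat shock list (7.06) and Cthrc1 (7.12). It did so too in Slc13a5 (6.67), Timp1 (8.39), Cgref1 (7.53), Col11a1 (7.78), Alpl (8.01) and Pth1r (6.96). It did so too in Col12a1 (8.34), Col5a2 (7.49), Mmp14 (8.38), Cdh15 (5.59), Bmp1 (7.38) and Gli3 (5.59). It did so too in Mmp13 (10.52), Col1a1 (11.37), Col2a1 (6.71) and Krt1 (4.40). Day 0 replicate 1 stood below its group in Satb1 (7.80). Day 0 replicate 3 stood above its group in Dsc3 (3.97). Day 0 replicate 4 stood below its group in Cidec (5.19). Day 0 replicate 5 stood above its group in the complement list (7.49), the macrophage list (7.39), the plasma cell list (7.03), Jchain (10.83), Chst15 (7.81) and Mrc1 (9.0). Day 0 replicate 5 stood below its group in Frzb (3.61) and Myh2 (7.58). Day 0 replicate 6 stood below its group in Kel (8.31), Ermap (8.68) and Alas2 (10.04). Day 20 replicate 2 stood above its group in Chst15 (7.76). Day 20 replicate 2 stood below its group in the neutrophil list (7.92), the mast cell, basophil and eosinophil list (5.18), the skeletal muscle list (8.42), Gca (4.69), Tnni2 (10.40) and Lmo2 (7.41). It did so too in Adgre1 (7.22) and Myh4 (9.37). Day 20 replicate 3 stood above its group in Il1a (5.50), Il7r (7.67) and Cnp (7.56). Day 20 replicate 3 stood below its group in Slitrk6 (5.98), Atp6v0d2 (10.32), Col5a2 (8.45) and Mmp16 (7.30). Day 20 replicate 4 stood above its group in Jchain (8.79). Day 20 replicate 5 stood above its group in Vpreb3 (6.19).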

How the results depend on the processing

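No named gene that was called changed sign under the alternatives run. The balance of calls did turn: 3800 higher and 3145 lower became 3451 and 3765 under quantile normalization and 3208 and 3868 under median centring, with median changes over all genes of 0.012, -0.009 and -0.038. Leaving out 1 array at a time gave 5865 (without day 20 replicate 2) to 6962 (without day 20 replicate 3) genes called at day 20, 11255 to 11789 genes inside ±0.5, 8634 to 9041 called at day 10 and 5853 to 6634 at day 5. For the responders chosen in young mice the ranges were 716 to 851 and 522 to 681 for day 5, raised and lowered, and 1275 to 1379 and 845 to 1044 for day 10. The age difference gave 0 in all 21 leave-one-out fits. Among the day 0 arrays of old mice, keeping only those with name numbers under 60 leaves 1 array. That fit gave 2686 genes called at day 20, 5829 at day 10 and 3039 at day 5, and 5278 inside ±0.5. It gave 161, 832 and 236 for responders lowered at day 5, raised at day 10 and lowered at day 10. Arrays of the later days were kept whatever their number, so the day 5 and day 10 counts are not within the same numbering. The cause was not tested. Fewer genes are tested without the dimmest 25% (7074 inside ±0.5) and without the dimmer 50% (3754). Testing against a minimum change of 1 log2 unit called 386 genes, 316 higher and 70 lower. With a young change of at least 2 log2 units the sets are smaller by construction, and 167, 139, 297 and 197 genes were called in their direction. Quantile normalization called 7216 genes and median centring 7076. The replicate block called 6769 genes at day 20. Same-numbered arrays did not deviate together over genes (correlations from -0.038 to 0.020). What paired arrays would give is not known, so these values cannot decide whether the numbers pair the arrays. The authors' deposited table gave 6751 genes. Over 227 named genes, 5395 alternative values were computed, of which 5117 kept direction and side of the threshold, 186 lost the call, 21 gained it and 71, of 21 genes not called, changed sign without a call. Cd3d, for example, went from 0.11 to -0.56 when 1 array was left out. The number of arrays limits the precision.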
